A study of Mus musculus with 12 samples.

Results

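Myosins are motor proteins whose heavy chains burn ATP to pull on actin filaments, and they shape, tension and supply the thin extensions of neurons and glia. Described here are the messages of 9 myosin heavy chains, out of 41388 gene identifiers counted, in astrocyte ribosome pull-downs and their inputs from mouse forebrain. The 9 are Myo6, Myh9, Myh10, Myh14, Myo5a, Myo10, Myo1d, Myo9a and Myo18a. They were chosen from earlier results on these same 12 libraries. Which comparison was used to choose them is not stated, so all of them count as used, and the values below describe what was chosen and give no independent evidence that myosins stand apart. All 9 passed the filter on low counts.

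The libraries fall into 4 groups of 3, all from C57/Bl6 mice aged 21 postnatal days, with cortex and hippocampus as the tissue. Every mouse expressed the ribosomal protein Rpl10a fused to eGFP from a bacterial artificial chromosome under the astrocyte promoter Aldh1l1, and all samples had cycloheximide at 1 ug/mL and TTX at 1 mM. PAP TRAP (peripheral astrocyte process translating ribosome affinity purification) is the RNA pulled down with tagged ribosomes from synaptoneurosomes, a layer of a sucrose gradient with pinched-off synapses and attached processes. Synaptoneurosome input is the RNA of that layer before the pull-down. Cortex TRAP is the pull-down from the whole-tissue lysate, and cortex input is that lysate before it. Nothing in the labels says that replicates came from separate animals, so the spread between them may be technical.

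The family divides by tail and job. Non-muscle myosin II assembles into bipolar filaments that contract the actin cortex, and Myh9, Myh10 and Myh14 encode its heavy chains IIA, IIB and IIC. Myo5a and Myo6 are cargo motors that walk in opposite directions on actin: Myo5a brings endoplasmic reticulum into dendritic spines of Purkinje cells, and Myo6 takes part in endocytosis, including that of glutamate receptors. Myo10 travels to the tips of filopodia, Myo1d links membrane to actin, Myo9a carries a domain that switches off the GTPase RhoA, and Myo18a is a relative of myosin II with a PDZ domain.

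All 9 heavy chains share the phosphate-binding loop of the motor head, which holds the phosphates of ATP. The coding sequence around it is shown for each because it is common to all of them, and because it shows how far the messages differ even where the protein is the same. Each line gives 60 coding bases of the transcript with the longest coding sequence in GENCODE M21, 5′ to 3′, with the 24 bases of the loop in capitals.
Myh9: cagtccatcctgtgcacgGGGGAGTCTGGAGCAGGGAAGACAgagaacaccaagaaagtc
Myh10: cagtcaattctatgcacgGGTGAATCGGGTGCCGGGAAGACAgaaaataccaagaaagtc
Myh14: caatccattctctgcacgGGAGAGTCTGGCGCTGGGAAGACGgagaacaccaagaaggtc
Myo5a: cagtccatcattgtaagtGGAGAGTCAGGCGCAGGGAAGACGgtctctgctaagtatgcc
Myo6: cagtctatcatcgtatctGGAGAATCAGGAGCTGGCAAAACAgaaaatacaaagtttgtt
Myo10: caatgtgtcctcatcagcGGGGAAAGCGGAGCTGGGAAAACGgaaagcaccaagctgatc
Myo1d: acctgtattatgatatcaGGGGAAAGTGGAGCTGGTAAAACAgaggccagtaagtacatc
Myo9a: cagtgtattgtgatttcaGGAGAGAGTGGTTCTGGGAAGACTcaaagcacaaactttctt
Myo18a: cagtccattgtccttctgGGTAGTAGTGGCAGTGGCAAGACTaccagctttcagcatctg

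In 6 of the other heavy chains the loop encodes the same 8 amino acids as in Myh9, whereas Myo9a keeps 7 and Myo18a keeps 6. The bases differ more than the protein. Of the 24 loop bases, Myh14 and Myo5a share 20 with Myh9, Myh10 shares 19, Myo6 and Myo1d share 18, Myo10 and Myo9a share 17, and Myo18a shares 12. Over whole transcripts the genes are largely distinct: the share of 50-base windows also found in another gene's transcripts was 0% for Myo10 and Myo1d and at most 1.01%, in Myo9a. In Myh9 the share was 0.68% and in Myh10 0.689%, with some windows in common between them, so a small part of their reads could not have been told apart.

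The genes lie on mouse chromosomes 7 (Myh14), 9 (Myo6, Myo5a and Myo9a), 11 (Myh10, Myo1d and Myo18a) and 15 (Myh9 and Myo10) of GRCm38. Exons together span 6465 bases in Myo1d to 16037 bases in Myo18a. The chromosome 9 members are Myo9a at chr9:59750896-59928866, Myo5a at chr9:75071015-75223688 and Myo6 at chr9:80165031-80311729, all on the plus strand. Myh9 lies at chr15:77760587-77842175 and Myh14 at chr7:44605803-44670843, both on the minus strand. Myh10 at chr11:68691559-68816632, Myo18a at chr11:77763246-77865980 and Myo10 at chr15:25622525-25813673 are on the plus strand, and Myo1d at chr11:80482126-80780025 is on the minus strand.

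Counts assigned to genes ranged from 4918113 to 17553985 per library. Much of this was mitochondrial: 35.6% to 47.6% of gene counts in PAP TRAP, 83.8% to 91.9% in synaptoneurosome input, 1.03% to 1.28% in cortex TRAP and 44.8% to 50.2% in cortex input, so the synaptoneurosome inputs are the shallowest for myosins. Astrocyte markers (15 genes, all with counts in each group) took 5.43% to 10.6% of nuclear counts in PAP TRAP, 4.42% to 5.35% in synaptoneurosome input, 9.0% to 12% in cortex TRAP and 0.951% to 1.02% in cortex input. All 15 were called higher in cortex TRAP than in cortex input, and 4 of 15 were called higher in PAP TRAP than in synaptoneurosome input. Neuron markers (15 genes) took 2.14% to 3.33% in PAP TRAP, 1.99% to 2.45% in synaptoneurosome input, 0.295% to 0.372% in cortex TRAP and 2.44% to 2.82% in cortex input. The ranges of PAP TRAP and cortex input overlap for neuron markers. Oligodendrocyte precursor markers (9 genes) took 0.0401% to 0.0485% in PAP TRAP, 0.0487% to 0.0522% in synaptoneurosome input, 0.0219% to 0.0301% in cortex TRAP and 0.0234% to 0.031% in cortex input.

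Levels below are normalized CPM, that is, counts brought to a common library total with TMM factors, and changes are fitted log2 ratios ± SE over 3 libraries a group. Called means an adjusted p under 0.05 in edgeR's quasi-likelihood test over 13364 genes. In such bulk RNA, fewer cells of a type and less RNA per cell cannot be told apart. Over the 9 together, the summed level per kb of exon was 175 ± 13.1 normalized CPM per kb in PAP TRAP, 65.7 ± 6.41 in synaptoneurosome input, 22.6 ± 2.40 in cortex TRAP and 47.3 ± 1.65 in cortex input (SD, n = 3). By this relative measure of 9 chosen genes, the fraction pull-down was highest and the whole-tissue pull-down lowest. In PAP TRAP, Myo5a made up 46.4% of the sum and Myo6 29.1%. The measure rests on TMM factors from 0.191 (synaptoneurosome input replicate 2) to 2.46 (cortex TRAP replicate 2).

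**Figure D1:**
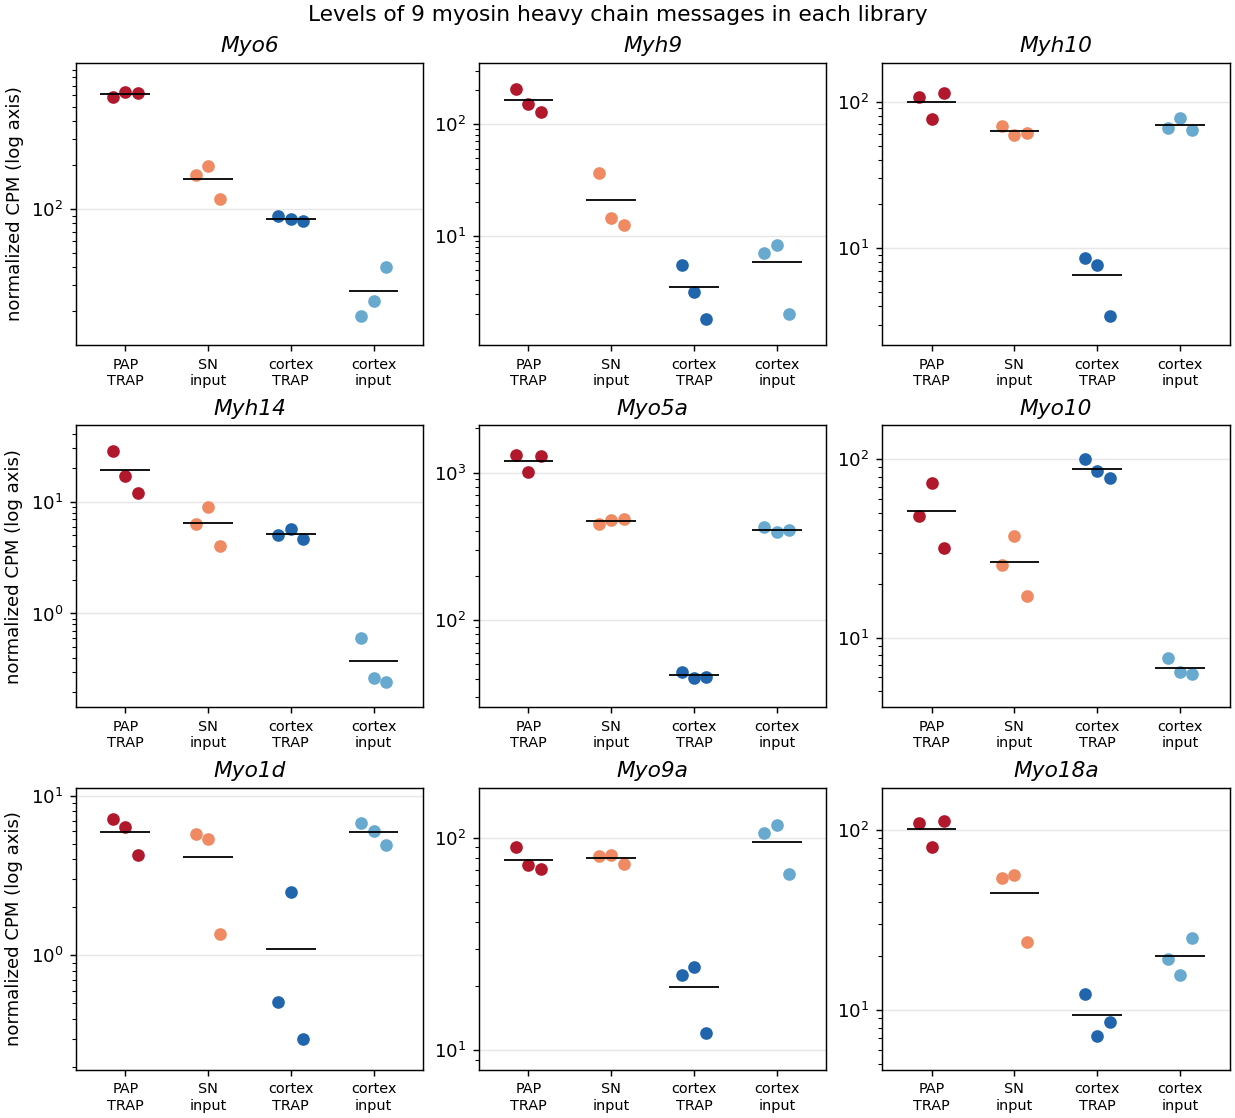
Normalized CPM (log axis, scaled separately per gene) of the 9 myosin messages in each of 12 libraries, with PAP TRAP, synaptoneurosome (SN) input, cortex TRAP and cortex input from left to right; points are libraries and bars are group means. Myo6 has group means of 613, 161, 85.7 and 27.5 in that order, Myo5a is low in cortex TRAP alone, and Myo10 is highest in cortex TRAP.

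Non-muscle myosin IIA, Myh9, is the isoform of contractile bundles and cell spreading. It had 207, 152 and 129 normalized CPM in the 3 PAP TRAP libraries. In synaptoneurosome input it had 36.2, 14.3 and 12.5, in cortex TRAP 5.55, 3.15 and 1.79, and in cortex input 7.09, 8.38 and 2.02 normalized CPM. Every PAP TRAP library lay above every other library, while the groups of cortex TRAP and cortex input overlapped. The fitted change of PAP TRAP over cortex TRAP was 5.53 ± 0.57 log2, or 46.2-fold (95% interval 20.1 to 106), and 6.18 without cortex TRAP replicate 1. Over synaptoneurosome input it was 2.96 ± 0.51, and 3.61 without synaptoneurosome input replicate 1. Cortex TRAP over cortex input was -0.73 ± 0.50, with an interval from -1.77 to 0.31. It was not called there, but was without cortex input replicate 3 (-1.29), and it was -1.38 without cortex TRAP replicate 1. In the fraction, by contrast, the pull-down held 7.79-fold more Myh9 than its input (interval 3.71 to 16.4).

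Myh9 is also abundant in blood vessel cells, whose markers are given beside it, with those of microglia. Endothelial markers (12 genes) took 0.00786% to 0.00981% of nuclear counts in PAP TRAP and 0.00461% to 0.00829% in synaptoneurosome input. They took 0.0147% to 0.019% in cortex TRAP and 0.00271% to 0.00346% in cortex input. Those at 0 in every library of a group were Cldn5 and Ly6c1 in PAP TRAP and Cldn5, Emcn and Ly6c1 in synaptoneurosome input. In cortex TRAP they were Kdr, Tek and Tie1, and in cortex input Cldn5. Mural and smooth muscle markers (12 genes) took 0.00555% to 0.0109% in PAP TRAP, 0.00801% to 0.0157% in synaptoneurosome input, 0.00432% to 0.00821% in cortex TRAP and 0.00613% to 0.00894% in cortex input. Microglia markers (14 genes) took 0.0326% to 0.0493% in PAP TRAP, 0.077% to 0.17% in synaptoneurosome input, 0.00431% to 0.00724% in cortex TRAP and 0.0172% to 0.0221% in cortex input. The microglial share was thus higher in PAP TRAP than in cortex TRAP, as Myh9 was, but lower in PAP TRAP than in synaptoneurosome input, where Myh9 went the other way. Gene by gene, 2 of 5 tested endothelial markers were called higher in PAP TRAP than in cortex TRAP and 1 lower (median 3.93 log2). Among 6 tested mural and smooth muscle markers, 3 were called higher and 1 lower (median 1.32). From neither list was a marker called in PAP TRAP against synaptoneurosome input (medians 0.60 and -0.37). The part of these cells in the Myh9 values was not tested.

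Non-muscle myosin IIB, Myh10, the main form in neurons and dendritic spines, followed another pattern. Its levels were 108, 76.5 and 115 normalized CPM in PAP TRAP, 68.4, 59.4 and 61.0 in synaptoneurosome input, 8.55, 7.71 and 3.47 in cortex TRAP, and 65.8, 77.1 and 64.2 in cortex input. Cortex TRAP stood alone at the low end, and PAP TRAP overlapped with cortex input. PAP TRAP was higher than cortex TRAP by 3.92 ± 0.35 log2 (15.2-fold, interval 9.18 to 25.1), and cortex TRAP was 10.5-fold lower than cortex input (log2 change -3.39 ± 0.34). PAP TRAP over synaptoneurosome input was only 0.67 ± 0.31 and was not called, and synaptoneurosome input over cortex input was -0.13 ± 0.31.

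Non-muscle myosin IIC, Myh14, was the least abundant myosin II message per kb in PAP TRAP and in both inputs. It had 28.4, 17.0 and 12 normalized CPM in PAP TRAP, 6.38, 8.96 and 4.05 in synaptoneurosome input, 5.04, 5.72 and 4.66 in cortex TRAP, and 0.609, 0.266 and 0.245 in cortex input. All other groups lay above cortex input, whose values rest on 11, 4 and 4 counts. Cortex TRAP was higher than cortex input by 3.73 ± 0.64 log2 (13.3-fold, interval 5.29 to 33.4), and synaptoneurosome input was higher than cortex input by 4.05 ± 0.65 (16.6-fold, interval 6.45 to 42.7). PAP TRAP over cortex TRAP was 1.90 ± 0.56, a call that ended without PAP TRAP replicate 1 (1.5). PAP TRAP over synaptoneurosome input was 1.58 ± 0.57 and was not called by edgeR, but was with DESeq2 (1.54).

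The make-up of myosin II therefore differed between groups. Per kb of exon, Myh9 made up 50.6% ± 5.75 of the summed levels of the 3 heavy chains in PAP TRAP, 18.1% ± 8.02 in synaptoneurosome input, 16.1% ± 5.23 in cortex TRAP and 6.14% ± 3.18 in cortex input (SD, n = 3). Myh10 made up 39.0% ± 8.35, 71.4% ± 7.63, 37.9% ± 6.99 and 93.1% ± 3.37 in the same 4 groups. Myh14 made up 10.4% ± 2.85, 10.5% ± 4.23, 46.0% ± 11.1 and 0.732% ± 0.416. Whole tissue was thus nearly all IIB by this measure, the whole-tissue pull-down mostly IIB and IIC, and the fraction pull-down mostly IIA and IIB. Values per kb, here and elsewhere, divide by the exons of all annotated transcripts of a gene. The length of the message present was not measured, so orders between genes are approximate. In PAP TRAP the ratio of Myh10 to Myh9 per kb ran from 0.624 to 1.10.

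Myo5a, the vesicle and endoplasmic reticulum carrier, was the most abundant of the 9 per kb in PAP TRAP and in both inputs. It had 1314, 1015 and 1289 normalized CPM in PAP TRAP, 446, 479 and 481 in synaptoneurosome input, 44.5, 40.6 and 41.2 in cortex TRAP, and 429, 393 and 409 in cortex input. No 2 of the 4 groups overlapped, although synaptoneurosome input and cortex input lay close together (log2 change 0.19 ± 0.20). PAP TRAP was 28.7-fold above cortex TRAP (interval 20.3 to 40.4, log2 4.84 ± 0.24) and 2.57-fold above synaptoneurosome input (interval 1.91 to 3.47, log2 1.36 ± 0.21). Cortex TRAP was 9.75-fold below cortex input (log2 change -3.29 ± 0.22). The whole-tissue pull-down thus held less Myo5a than its input, and the fraction pull-down more than its own.

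Myo6, the motor that walks toward the pointed end of actin, was high in both pull-downs relative to input. It had 584, 628 and 626 normalized CPM in PAP TRAP, 170, 196 and 116 in synaptoneurosome input, 89.2, 84.9 and 83.1 in cortex TRAP, and 18.6, 23.5 and 40.3 in cortex input. The groups formed 4 steps without overlap. PAP TRAP was higher than cortex TRAP by 2.84 ± 0.29 log2 (7.15-fold, interval 4.68 to 10.9) and higher than synaptoneurosome input by 1.93 ± 0.28 (3.81-fold, interval 2.52 to 5.74). Cortex TRAP was higher than cortex input by 1.64 ± 0.28, and synaptoneurosome input was higher than cortex input by 2.55 ± 0.29. The difference between these enrichments over input, fraction minus whole tissue, was 0.29 ± 0.39 log2, with an interval from -0.53 to 1.10.

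The balance of the cargo motors turned over between groups. Per kb, the ratio of Myo5a to Myo6 was 1.61 ± 0.266 in PAP TRAP, 2.50 ± 0.763 in synaptoneurosome input, 0.400 ± 0.00935 in cortex TRAP and 13.6 ± 5.28 in cortex input (SD, n = 3). Cortex TRAP is the group in which Myo6 exceeded Myo5a, in all 3 libraries.

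Myo10, the filopodial motor with a MyTH4-FERM tail that binds integrins, was the member that went the other way. It had 48.2, 74.0 and 31.9 normalized CPM in PAP TRAP, 25.5, 37.3 and 17.2 in synaptoneurosome input, 101, 85.6 and 79.0 in cortex TRAP, and 7.70, 6.45 and 6.24 in cortex input. Every cortex TRAP library lay above every PAP TRAP library, and cortex input was lowest. PAP TRAP over cortex TRAP was -0.79 ± 0.34 log2, with an interval from -1.49 to -0.08. It was not called with all libraries, but was called without PAP TRAP replicate 2 (-1.14), the PAP TRAP library with most Myo10. Cortex TRAP was 13.0-fold above cortex input (interval 7.54 to 22.4, log2 3.70 ± 0.38), and synaptoneurosome input was 3.90-fold above cortex input (interval 2.32 to 6.56). PAP TRAP over synaptoneurosome input was 0.95 ± 0.34 and not called. Myo10 was thus higher in the fraction's input than in the whole tissue's input, but was not called higher in the fraction pull-down than in the whole-tissue one.

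Myo1d, a single-headed motor that in flies sets left-right asymmetry, had calls that rested on few counts. It had 7.20, 6.36 and 4.27 normalized CPM in PAP TRAP, 5.77, 5.37 and 1.35 in synaptoneurosome input, 0.51, 2.49 and 0.299 in cortex TRAP, and 6.81, 6.05 and 4.89 in cortex input. The cortex TRAP values rest on 9, 30 and 5 counts, and only cortex TRAP lay below the PAP TRAP and cortex input groups without overlap. PAP TRAP over cortex TRAP was 2.45 ± 0.83 log2 and cortex TRAP over cortex input -2.45 ± 0.83. Without cortex TRAP replicate 2 these became 3.97 and -3.97, and both calls ended without cortex TRAP replicate 1 or 3 (2.24 and 2.14 for PAP TRAP over cortex TRAP, and -2.24 and -2.14 for cortex TRAP over cortex input). The call against cortex TRAP also ended without PAP TRAP replicate 1 (2.29) or 2 (2.40) and in a fit of the compared groups alone (2.63), and the call against cortex input without cortex input replicate 1 (-2.48) or 2 (-2.43). Myelinating oligodendrocyte markers (12 genes) and neuron markers were also lowest in cortex TRAP. The oligodendrocyte markers took 0.803% to 1.07% of nuclear counts in PAP TRAP, 0.618% to 0.816% in synaptoneurosome input, 0.066% to 0.0962% in cortex TRAP and 0.452% to 0.496% in cortex input. Unlike Myo1d, they were higher in PAP TRAP and synaptoneurosome input than in cortex input. The part of either cell type in the Myo1d values was not tested.

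Myo9a, the myosin with a RhoA-inactivating tail, had like levels in 3 of the groups. It had 89.9, 74.4 and 70.9 normalized CPM in PAP TRAP, 82.0, 83.0 and 74.9 in synaptoneurosome input, 22.7, 24.5 and 12.1 in cortex TRAP, and 105, 115 and 67.5 in cortex input. Cortex TRAP was the low group and the other groups overlapped. PAP TRAP over cortex TRAP was 1.99 ± 0.31 log2 (3.97-fold, interval 2.55 to 6.19), and cortex TRAP was 4.85-fold below cortex input (log2 change -2.28 ± 0.31). PAP TRAP over synaptoneurosome input was -0.03 ± 0.30, so that a difference beyond 1.51-fold in favour of PAP TRAP lies outside the interval.

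Myo18a, which stays on actin but has little or no motor activity of its own in mammals, had 110, 80.7 and 112 normalized CPM in PAP TRAP. It had 54.1, 56.1 and 23.7 in synaptoneurosome input, 12.3, 7.13 and 8.61 in cortex TRAP, and 19.2, 15.7 and 25.2 in cortex input. PAP TRAP was above all other groups without overlap, whereas synaptoneurosome input overlapped with cortex input. PAP TRAP was 10.7-fold above cortex TRAP (interval 6.23 to 18.5, log2 3.43 ± 0.38), and cortex TRAP was lower than cortex input (log2 change -1.09 ± 0.35), a call that ended without cortex input replicate 3 (-1.04). PAP TRAP over synaptoneurosome input was 1.18 ± 0.35 and not called. That change was called with DESeq2 (1.13), with no filter on low counts (1.24), without mitochondrial genes (1.3) and without cortex TRAP replicate 1 (1.18).

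**Figure D2:**
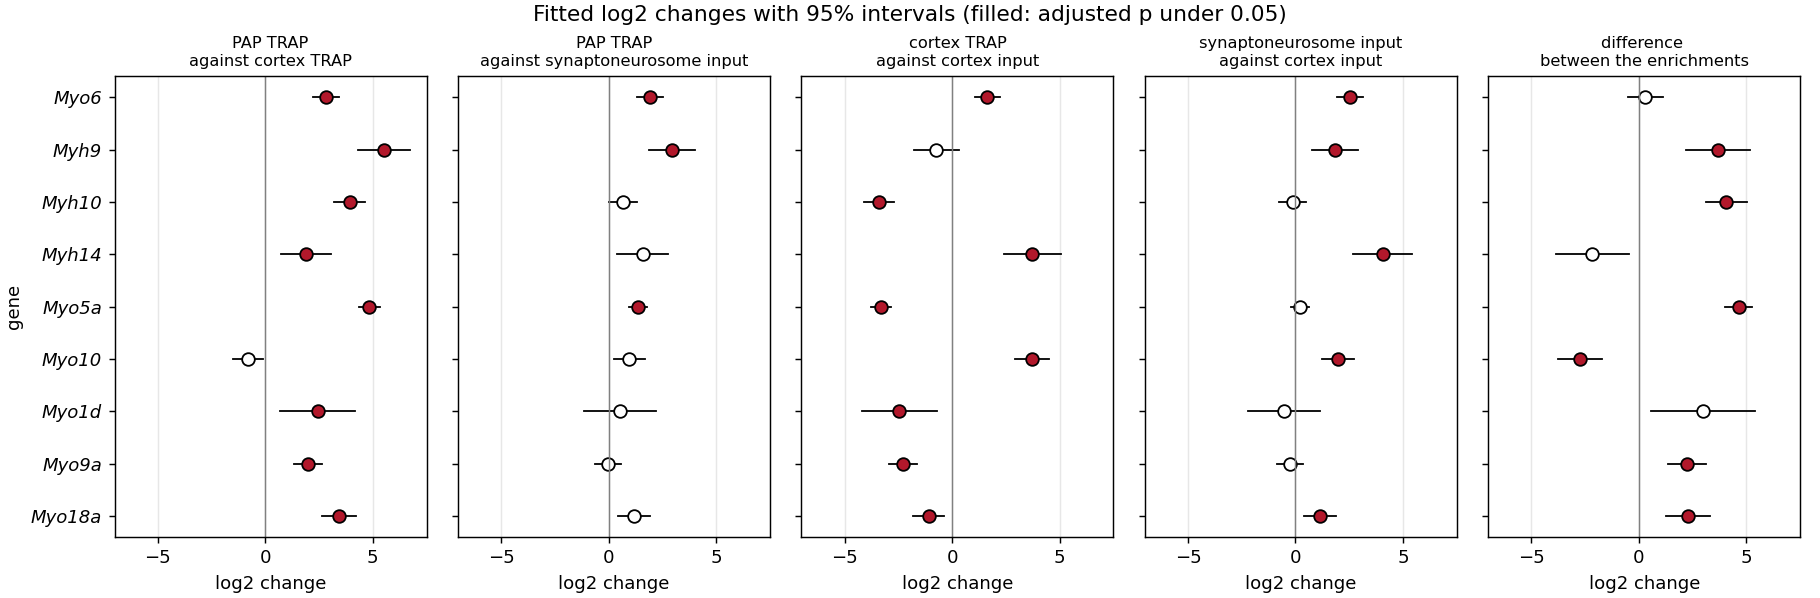
Fitted log2 changes of the 9 messages in 4 comparisons between groups and in the difference between enrichments (PAP TRAP over synaptoneurosome input minus cortex TRAP over cortex input); bars are 95% intervals and filled points have an adjusted p under 0.05. Myo6, Myh14 and Myo10 lie right of 0 in cortex TRAP against cortex input, where Myh10, Myo5a, Myo1d, Myo9a and Myo18a lie left of it.

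Set against cortex TRAP, 8 of the 9 messages were called higher in PAP TRAP and none lower, all but Myo10. Of all 13364 genes tested, 33.9% were called in that comparison, 19.3% higher and 14.6% lower. The median of the 9 was 2.84 log2, and that of all genes -0.28. In the same comparison, 14 of 15 neuron markers (median 2.57), 9 of 12 myelinating oligodendrocyte markers and 9 of 14 microglia markers were called higher, and 12 of 15 astrocyte markers were called lower (median -1.34). The part of RNA from these other cells in the myosin changes was not tested. Set against synaptoneurosome input, 3 of 9 were called higher in PAP TRAP (Myo6, Myh9 and Myo5a) and none lower, where 4.53% of all genes were called, 3.0% higher and 1.53% lower. The median of the 9 there was 1.18, and that of all genes 0.06.

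For cortex TRAP over cortex input, 3 of 9 were called higher (Myo6, Myh14 and Myo10) and 5 lower, where 35.4% of all genes were called, 15.9% higher and 19.5% lower. The median of the 9 was -1.09, and that of all genes 0.05. For synaptoneurosome input over cortex input, 5 of 9 were called higher (Myo6, Myh9, Myh14, Myo10 and Myo18a) and none lower, where 9.32% of all genes were called, 7.26% higher and 2.07% lower. The medians were 1.15 and -0.14. Of these calls, that of Myh9 (1.84 ± 0.50) ended without cortex input replicate 1 (2.00) or 3 (1.43) or synaptoneurosome input replicate 1 (1.22), and that of Myo18a (1.15 ± 0.35) ended in 7 of 19 alternatives (0.96 to 1.34). Nothing is read from these shares, since the members were chosen on these libraries.

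The enrichment over input differed between fraction and whole tissue for 6 of the 9, by the interaction term of the same fit. It was larger in the fraction for 5, Myo5a (4.65 ± 0.30 log2), Myh10 (4.06 ± 0.45), Myh9 (3.69 ± 0.71), Myo18a (2.27 ± 0.49) and Myo9a (2.25 ± 0.42), and smaller for Myo10 (-2.75 ± 0.49). Of all genes, 20.2% were called for this difference, 12.9% larger and 7.32% smaller in the fraction, with a median of 0.03. Without cortex TRAP replicate 1 or synaptoneurosome input replicate 1 the difference for Myh9 was 4.34 or 4.36. Myh14 (-2.16 ± 0.82) and Myo1d (2.97 ± 1.15) were not called for the difference. Myh14 was called with DESeq2 (-2.22), with offsets corrected for GC content (-2.56) and without synaptoneurosome input replicate 3 (-2.38), and Myo1d with DESeq2 (2.92) and without cortex TRAP replicate 2 (4.50). For Myo9a the difference comes with near-input levels in PAP TRAP and lower levels than input in cortex TRAP, and for Myh9 with higher levels than input in PAP TRAP. For Myh10, cortex TRAP was far below its input and every PAP TRAP library lay above every synaptoneurosome input library, by a fitted 1.59-fold (interval 1.01 to 2.48). The 15 neuron markers moved in the direction of the 5 members called larger, with a median difference of 2.91 and 14 of 15 called larger. The 15 astrocyte markers moved in the direction of Myo10, with a median of -3.14 and 15 of 15 called smaller. The part of neuronal RNA in the myosin values was not tested.

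**Figure D3:**
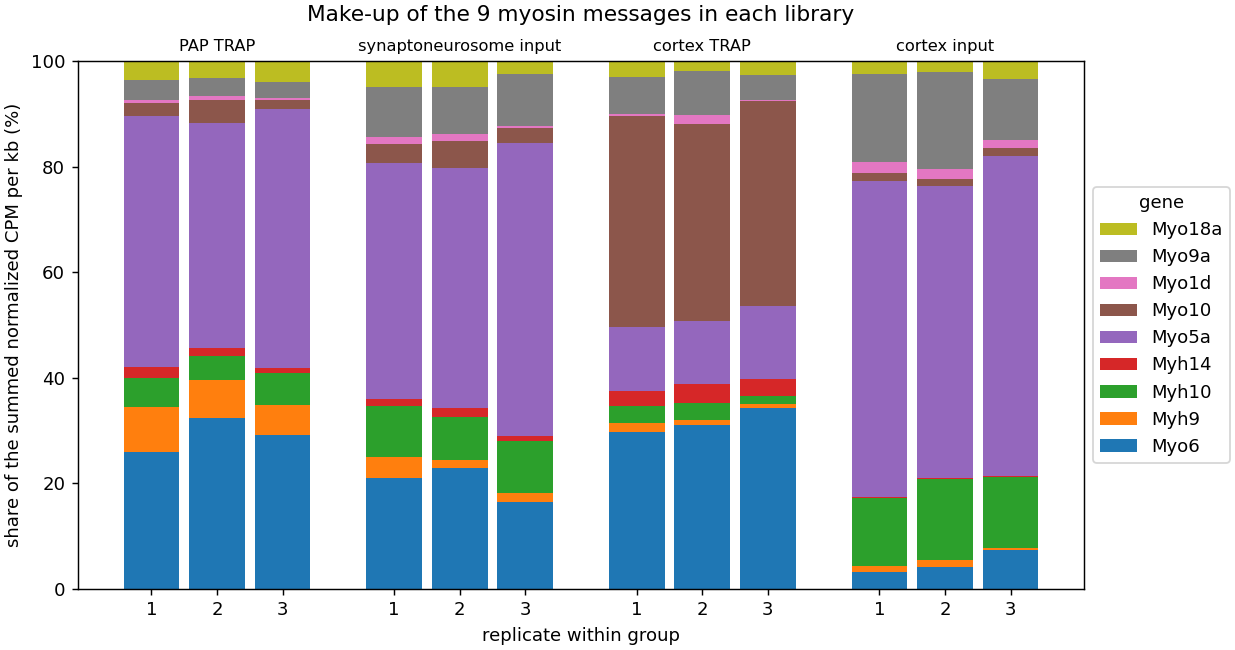
Share of each of the 9 messages in their summed normalized CPM per kb, in percent, for each library (3 bars a group). Myo5a holds 46.4% in PAP TRAP on average, 48.5% in synaptoneurosome input, 12.7% in cortex TRAP and 58.7% in cortex input, while Myo10 holds 38.7% in cortex TRAP and at most 5.19% in any library of the other groups.

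Per kb, the order of the 9 was led by Myo5a and Myo6 in PAP TRAP and synaptoneurosome input, by Myo10 and Myo6 in cortex TRAP, and by Myo5a and Myo9a in cortex input. Myo6 held 29.1% ± 3.23 of the summed level per kb in PAP TRAP, 20.1% ± 3.32 in synaptoneurosome input, 31.6% ± 2.36 in cortex TRAP and 4.86% ± 2.20 in cortex input (SD, n = 3). Myo10 held 2.95% ± 1.43, 3.94% ± 1.16, 38.7% ± 1.42 and 1.42% ± 0.13 in the same groups. Myo9a held 3.43% ± 0.329, 9.36% ± 0.421, 6.63% ± 1.87 and 15.5% ± 3.61. In cortex TRAP, Myo10 lay above Myo6 in all 3 libraries, whereas Myh9, Myh10, Myh14, Myo1d and Myo18a each held under 4% there. In cortex input, Myo9a and Myh10 overlapped, with 11.4% to 18.4% and 13.0% to 15.4%.

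The rest of the family was mostly faint. Of 29 other heavy chain genes, 13 passed the filter on low counts, and the other 16, among them the muscle genes Myh1, Myh2 and Myh4, had at most 73 counts over all 12 libraries. Of those 13, 5 were called higher in PAP TRAP than in cortex TRAP and none lower (median 2.48 log2). Over all genes, 19.3% were called higher and 14.6% lower. The shares of all genes given above for the other comparisons also stand beside the counts of the lists below. Myo16, a neuronal myosin that binds regulators of actin branching, was higher by 2.64 ± 0.45 (adjusted p = 0.000165), with 29.7 ± 6.71 normalized CPM in PAP TRAP and 4.72 ± 2.65 in cortex TRAP (SD, n = 3).

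None of the 13 was called against synaptoneurosome input by edgeR, although 3 had an unadjusted p under 0.05 (median 0.21). For cortex TRAP over cortex input, 1 was called higher and 4 lower (median -1.64). Myo5b, a relative of Myo5a that moves recycling endosomes, was lower (-2.99 ± 0.68, adjusted p = 0.00192), with 1.17 ± 0.728 normalized CPM in cortex TRAP and 9.35 ± 3.97 in cortex input. Myh15 was higher (4.01 ± 1.2, adjusted p = 0.0132), with 4.11 ± 2.45 normalized CPM in cortex TRAP and 0.247 ± 0.234 in cortex input, a call that ended without cortex input replicate 1 (3.95) or 3 (3.29) or cortex TRAP replicate 1 (3.28). Myh15's change was 4.76 without cortex input replicate 2. None of the 13 was called between synaptoneurosome input and cortex input, with 1 at an unadjusted p under 0.05 (median 0.16). For the difference between enrichments, 4 of the 13 were called larger in the fraction and none smaller (median 2.02). The medians of these other heavy chains thus had the same sign as those of the 9 members in each comparison. Against synaptoneurosome input and between the inputs they were small, at 0.21 and 0.16 beside 1.18 and 1.15 for the members. Nothing is read from the sign there.

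Light chains brace the lever arm of the motor, and the list of them also holds the tail-binding Dynll1. Of 18 listed, 12 were tested, and 1 was called higher and 3 lower in PAP TRAP than in cortex TRAP (median -1.14 log2). Over all genes, 19.3% were called higher and 14.6% lower, and nothing is read from so few calls. Dynll1, a small light chain of dynein that also binds the tail of Myo5a, was lower by -1.88 ± 0.31 (adjusted p = 9.59e-05), with 20.4 ± 3.48 normalized CPM in PAP TRAP and 75.1 ± 0.564 in cortex TRAP. Its relative Dynll2, also on the list, was not called (-0.81 ± 0.34), with 27.3 ± 2.50 and 47.7 ± 13.3. Calml4, a calmodulin-like protein known from the brush border, had 0 counts in all 3 PAP TRAP libraries and 58, 2 and 31 in cortex TRAP. The upper 95% counting limit of its ratio of PAP TRAP over cortex TRAP was 0.0528, which covers counting error only. Its fitted change was -7.42, and -6.47 without cortex TRAP replicate 1, values that depend on the prior count. The call of Calml4 (adjusted p = 0.0174) ended without that library or PAP TRAP replicates 1 or 3 (adjusted p = 0.0505, 0.0563 and 0.0519). The list's median is not set by Calml4, and the medians of the lists with Mylk3 and Tom1, both at 0 counts in synaptoneurosome input, are likewise not set by them.

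Calmodulin, the light chain of Myo5a and of the class I myosins, is encoded by Calm2 and Calm3 among others. Calm2 was lower in PAP TRAP than in synaptoneurosome input (-1.78 ± 0.25, adjusted p = 0.000621), with 117 ± 23.1 normalized CPM against 404 ± 127, and was the 1 light chain called there (none higher, median -0.30). It was also lower in cortex TRAP than in cortex input (-3.08 ± 0.27, adjusted p = 4.47e-08), with 98.2 ± 10.7 against 828 ± 61.1. Calm3 was lower there as well (-1.50 ± 0.24, adjusted p = 5.29e-05), with 97.9 ± 5.60 against 277 ± 22.4. In all, 2 light chains were called higher and 3 lower in cortex TRAP than in cortex input (median 0.06).

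Both light chains called higher there were faint regulatory light chains of myosin II, whose phosphorylation starts contraction. Myl12a was higher in cortex TRAP than in cortex input by 2.68 ± 0.78 (adjusted p = 0.0108), with 9.49 ± 4.01 normalized CPM against 1.47 ± 0.617. Myl9, also a smooth muscle gene, was higher by 3.90 ± 1.3 (adjusted p = 0.0246), with 6.56 ± 4.01 against 0.431 ± 0.531. Myl12b, the most abundant regulatory light chain in cortex TRAP, was not called (-0.38 ± 0.31), with 36.3 normalized CPM in cortex TRAP and 47.2 in cortex input. Both calls are fragile: that of Myl12a ended without cortex input replicate 2 (2.58) or 3 (2.32) or cortex TRAP replicate 3 (2.24), and that of Myl9 without cortex input replicate 1 (3.22) or 2 (3.56) or cortex TRAP replicate 1 (3.40) or 2 (3.54). Myl9's change was 5.45 without cortex input replicate 3.

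Between the inputs, 2 light chains were called lower in synaptoneurosome input than in cortex input and none higher (median -0.34). Calm2 had -1.03 ± 0.25 (adjusted p = 0.0119), a call that ended without cortex input replicate 2 (-0.99) or synaptoneurosome input replicate 1 (-0.85) or 2 (-0.94). Calm3 had -0.84 ± 0.23 (adjusted p = 0.0304), a call that ended with RLE scaling (-0.74) and without any 1 of the 6 input libraries (-0.88 to -0.77). For the difference between enrichments, 3 light chains were called larger in the fraction and 1 smaller (median -0.97).

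Regulators of myosin II, the kinases and the phosphatase that set light chain phosphorylation, had 15 of 16 genes tested. In PAP TRAP against cortex TRAP, 5 were called higher, 1 lower and 9 not at all (median 0.46 log2), beside 19.3% higher and 14.6% lower over all genes. Cit, citron kinase, was higher by 3.75 ± 0.29 (adjusted p = 9.79e-09), with 232 ± 56.3 normalized CPM in PAP TRAP and 17.2 ± 5.15 in cortex TRAP. Ppp1r12b, a targeting subunit of myosin phosphatase, was higher by 2.57 ± 0.42 (adjusted p = 9.09e-05), with 85.5 ± 26.8 and 14.4 ± 6.79. Rhoa, the GTPase that switches on the Rock kinases and that Myo9a inactivates, was lower by -1.57 ± 0.32 (adjusted p = 0.000787), with 25.1 ± 6.48 normalized CPM in PAP TRAP and 74.6 ± 13.4 in cortex TRAP.

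Against synaptoneurosome input, 2 regulators were called higher in PAP TRAP and none lower (median 0.09), and both calls are close to the threshold. Cit had 0.97 ± 0.26 (adjusted p = 0.0429), with 232 ± 56.3 normalized CPM in PAP TRAP and 119 ± 13.5 in synaptoneurosome input. Cdc42bpb, a kinase under Cdc42 that acts on the same light chains, had 1.25 ± 0.35 (adjusted p = 0.0449), with 82.7 ± 12.3 and 35.0 ± 12.7. Both calls ended with RLE scaling (Cit 0.92, Cdc42bpb 1.19), with offsets corrected for GC content (0.79 and 0.93) and without any 1 PAP TRAP library (0.75 to 1.08 for Cit, 1.16 to 1.37 for Cdc42bpb), and without several of the input libraries.

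For cortex TRAP over cortex input, 2 regulators were called higher and 5 lower (median -0.52). The kinases Rock1 and Rock2, activated by RhoA, split. Rock1 was higher by 1.13 ± 0.32 (adjusted p = 0.00862), with 28.7 ± 2.67 normalized CPM in cortex TRAP and 13.2 ± 2.01 in cortex input, and Rock2 lower (-2.38 ± 0.29, adjusted p = 2.72e-06), with 54.8 ± 10.7 and 285 ± 25.0. The call of Rock1 ended without cortex input replicate 1 (0.94) or 3 (0.90) or cortex TRAP replicate 1 (0.91). Rhoa was higher by 1.83 ± 0.32 (adjusted p = 0.000147), with 74.6 ± 13.4 in cortex TRAP and 20.9 ± 1.04 in cortex input. Cit was lower (-2.30 ± 0.28, adjusted p = 2.15e-06), with 17.2 ± 5.15 in cortex TRAP and 84.6 ± 1.68 in cortex input. Between the inputs, Rock1 was the 1 regulator called (1.5 ± 0.32, adjusted p = 0.0051), with 37.3 ± 4.68 normalized CPM in synaptoneurosome input and 13.2 ± 2.01 in cortex input, and none was lower (median 0.10). For the difference between enrichments, 6 regulators were called larger in the fraction and 2 smaller (median 1.12).

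Cargo adaptors link the tails of Myo5a and Myo6 to membranes. Of 18 tested out of 20, 3 were called higher in PAP TRAP than in cortex TRAP and 4 lower (median 0.02 log2). Beside them, 19.3% of all genes were called higher and 14.6% lower. Lmtk2, a membrane kinase that binds Myo6 on endosomes, was higher by 4.17 ± 0.36 (adjusted p = 3.77e-08, and 4.79 without cortex TRAP replicate 1), with 174 ± 41.9 normalized CPM in PAP TRAP and 9.63 ± 4.78 in cortex TRAP. Dab2, which couples Myo6 to clathrin-coated cargo, was lower by -2.21 ± 0.57 (adjusted p = 0.00577), with 6.95 ± 1.73 and 32.3 ± 8.09. Of the other Myo6 adaptors listed, Calcoco1 was called lower (-1.16 ± 0.39, adjusted p = 0.0265), and Optn, Tax1bp1, Tom1, Tom1l2 and Gipc1 were not called (-0.48 to 0.40). Lmtk2 was thus the 1 Myo6 adaptor on the list called in the direction of Myo6 in PAP TRAP against cortex TRAP. For cortex TRAP over cortex input the directions were opposite, with Lmtk2 called lower (-3.65) and Myo6 called higher (1.64).

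Spire2, an actin nucleator that binds class V myosins, had 33, 14 and 31 counts in PAP TRAP and 1, 0 and 0 in cortex TRAP. Its ratio of summed counts per effective library size was 99.6 (95% counting interval 17.4 to 3985, which covers counting error only), and it was called higher (adjusted p = 0.00184). The ratio rests on that 1 count: without cortex TRAP replicate 1 the fitted change was 7.66 log2, against 6.12 with it, and both depend on the prior count. Rab10, a vesicle GTPase that recruits class V motors, was lower by -0.83 ± 0.25 (adjusted p = 0.0157), with 150 ± 39.0 normalized CPM in PAP TRAP and 266 ± 13.8 in cortex TRAP. The call of Rab10 ended in 6 of 19 alternatives, among them a fit of the compared groups alone (-0.66).

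Against synaptoneurosome input, Tom1l2, an endosomal adaptor of Myo6, was the 1 adaptor called in PAP TRAP and none was lower (median 0.03). It was higher by 1.17 ± 0.24 (adjusted p = 0.0101), with 153 ± 13.9 normalized CPM in PAP TRAP and 67.8 ± 12.5 in synaptoneurosome input, a call that ended without synaptoneurosome input replicate 2 (1.05). For cortex TRAP over cortex input, 3 adaptors were called higher and 6 lower (median 0.11). Spire1, the relative of Spire2, was higher by 1.26 ± 0.25 (adjusted p = 0.00054), with 319 ± 69.1 normalized CPM in cortex TRAP and 133 ± 21.6 in cortex input, and Rab10 by 1.09 ± 0.25 (adjusted p = 0.00203), with 266 ± 13.8 and 125 ± 16.5. Lmtk2 was lower (-3.65 ± 0.35, adjusted p = 1.64e-07, and -4.27 without cortex TRAP replicate 1), with 9.63 ± 4.78 in cortex TRAP and 121 ± 18.7 in cortex input. Rab3a, a synaptic vesicle GTPase, was lower too (-1.89 ± 0.38, adjusted p = 0.000674), with 30.4 ± 14.7 and 113 ± 23.2. None of the 18 was called by edgeR between synaptoneurosome input and cortex input, although 6 had an unadjusted p under 0.05 (median -0.24). For the difference between enrichments, 3 were called larger in the fraction and 1 smaller (median -0.21).

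**Figure D4:**
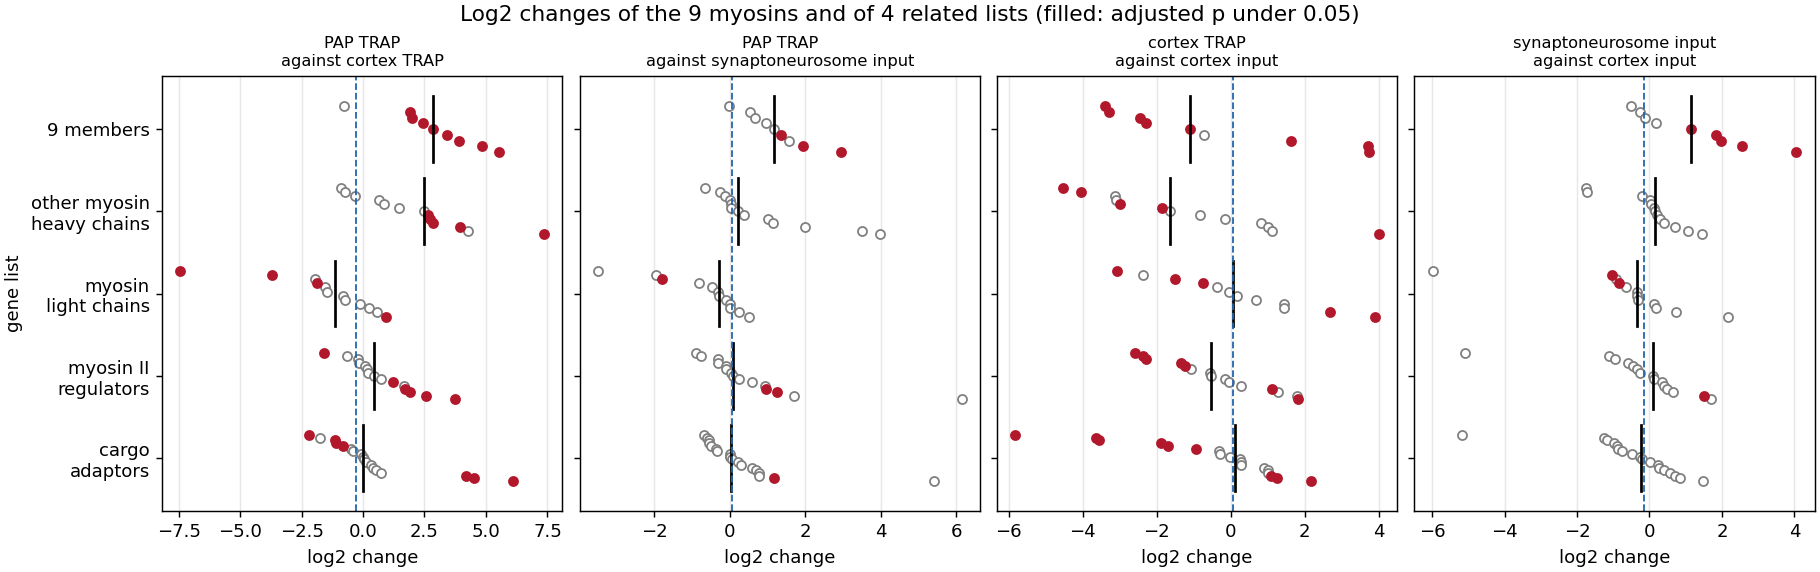
Log2 changes of the 9 members and of tested genes of 4 related lists in 4 comparisons; each point is a gene, filled where the adjusted p is under 0.05, black bars are list medians and the dashed line is the median of all genes tested. The members' median is 2.84 in PAP TRAP against cortex TRAP and that of the light chains -1.14. The far points of Calml4, Mylk3, Tom1, Spire2, Myo18b and Myh3 come from groups at or near 0 counts and are fitted values, not bounds.

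Genes with the most similar profiles over the 12 libraries were sought by Pearson's r of log2 CPM among 6703 genes whose mean log2 CPM was 3 or more. The libraries share 4 groups, so such an r mainly follows the group means and is given as a description. Myo5a was most like Zfp365 (0.995) and Srcin1 (0.993), and Myh10 most like Tanc2 (0.991) and Jcad (0.989). Myo10 was most like Ctso (0.988) and Clu (0.986), and Clu is a secreted chaperone abundant in astrocytes. Myh14 was like Ptprz1 (0.971), a surface phosphatase of astrocytes and their precursors.

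Myo6 was most like Ank2 (0.961) and Amot (0.958), Myh9 like Maz (0.964) and Macf1 (0.959), and Myo18a like Dst (0.974) and Ppp1r16b (0.968). Macf1, Dst and Ank2 encode giant linkers of the cytoskeleton. Myo9a was most like Cyfip2 (0.972), a subunit of the WAVE actin regulator, and Wnk3 (0.968), and Myo1d like E330009J07Rik (0.938) and Zdbf2 (0.937). Among the members themselves, the closest profiles were those of Myh10 and Myo5a (0.963) and of Myh10 and Myo9a (0.958), followed by Myo6 and Myh14 (0.913), while Myo10 and Myo9a were the most opposed (-0.667).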

How the data were processed

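RNA was sequenced from 12 libraries in 4 groups of 3, grouped by the sample labels. Per the labels' protocols, cDNA was amplified by SPIA before library preparation. Each deposited file gives raw read counts per gene, which by their values the authors had not normalized. The submitters' processing notes name Trimmomatic 0.32, Bowtie2, STAR and HTSeq. The build, the annotation and whether counting used strand are not given in the sources consulted, so reads of overlapping and antisense genes cannot be told apart. Without molecular identifiers, counts are not independent molecules.

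Rows naming no gene (20.3% to 55.5% of counts per library) were left out. Of 41388 identifiers, 40254 had a symbol. Symbols, exon lengths, GC content, positions and coding sequence were looked up by identifier in GENCODE M21 (GRCm38). No 2 replicates agreed within sampling noise (chi-square per degree of freedom at least 18.5). Genes were kept by filterByExpr (minimum count 10, minimum total 15), leaving 13364, and all libraries were fitted together with TMM scaling and 1 mean per group in the quasi-likelihood framework of edgeR 4.0.16 under R 4.3.3. Benjamini-Hochberg adjusted p-values run over all genes, with a threshold of 0.05. The script was tested on simulated data. In a first such test it recovered few of the smaller changes, and the test was then run with larger folds and looser criteria, so an uncalled gene may have changed.

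The members and the lists were chosen with earlier results of these data known. The members were all named. For each of 4 lists (other heavy chains, light chains, myosin II regulators, cargo adaptors) up to 2 called genes that were higher and 2 that were lower, by smallest p, were named per comparison between groups, and for each member the 2 genes with the highest Pearson's r. Some genes that these rules name are not reported here. Myl12b, Dynll2, Myo18b, Myh3, Calcoco1 and the uncalled Myo6 adaptors were named after their values were seen. The 7 marker lists are given as shares of nuclear counts. Alternatives were RLE scaling, no filter, DESeq2 1.42.0, a replicate block, a fit of the compared groups alone, no mitochondrial genes, offsets corrected for GC content (loess span 0.3) and each library left out.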

Additional observations from a re-analysis of the deposited data

Results flagged for a closer look

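For 6 of the 9 messages the enrichment over input differed between the synaptoneurosome fraction and the whole tissue by a test of the difference itself, the interaction term of the fit over all 12 libraries. The difference, as PAP TRAP over synaptoneurosome input minus cortex TRAP over cortex input on the log2 scale, was 4.65 for Myo5a, 4.06 for Myh10, 3.69 for Myh9, 2.27 for Myo18a and 2.25 for Myo9a. For Myo10 it was -2.75. Beside these 6, 20.2% of all genes were called for the difference, 12.9% larger and 7.32% smaller in the fraction. Among the 6, the fitted enrichments had opposite signs for Myh9, Myh10, Myo5a and Myo18a, above input in the fraction and below input in the whole tissue, although only those of Myo5a were called in both. The members were chosen on these same libraries, which favours such calls, so the differences are a description and no independent evidence.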

How the results depend on the processing

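Over 19 alternatives (18 for the difference between enrichments), 8 of 9 members called in PAP TRAP against cortex TRAP became 6 to 9. The 3 called against synaptoneurosome input became 3 to 5, with 5 under DESeq2. The 8 called for cortex TRAP against cortex input became 7 or 8, and the 6 called for the difference 6 to 8. The 5 called for synaptoneurosome input against cortex input became 3 to 5 when a library was left out. Before any alternative, 33.9%, 4.53%, 35.4%, 20.2% and 9.32% of all genes were called in these comparisons, in the same order. Over all genes, the 605 called in PAP TRAP against synaptoneurosome input became 1346 with DESeq2 and 399 with offsets corrected for GC content, and 292 to 740 when a library was left out. The 1246 called in synaptoneurosome input against cortex input became 2089 with DESeq2 and 2251 in a fit of the compared groups alone, and 608 to 1393 when a library was left out. No called change of a member or named gene changed sign. The fitted change of Myo9a over synaptoneurosome input, near 0, did so in 6 alternatives. Leaving out mitochondrial genes moved the median change of all genes in PAP TRAP against cortex TRAP from -0.276 to -0.113 log2, against synaptoneurosome input from 0.062 to 0.171, and for the difference from 0.0277 to 0.138. The cause of these shifts was not tested.

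Deviations of same-numbered libraries from their group means correlated weakly, by 0.00575 to 0.0804 in 18 comparisons, all above 0. Libraries of different number were not compared in this way, so whether the numbers pair the samples cannot be decided. With the number as a replicate block, between 653 (PAP TRAP against synaptoneurosome input) and 4770 (cortex TRAP against cortex input) genes were called, within 1.5 times the counts without it in every comparison. The block gained the call of Myo10 in PAP TRAP against cortex TRAP (-0.86) and that of Myo1d for the difference (3.51), and lost those of Cdc42bpb in PAP TRAP against synaptoneurosome input (1.24) and of Myl9 in cortex TRAP against cortex input (3.36). Depth limits Myh14 in cortex input (4 to 11 counts a library) and Myo1d in cortex TRAP (5 to 30).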
